A study of Drosophila melanogaster with 2 samples.

Results

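The 8 genes described here encode the Drosophila melanogaster Slit, Robo and Netrin guidance system, 3 ligands (sli, NetA and NetB) and 5 receptors (robo1, robo2, robo3, fra and unc-5). They are 8 of 13968 protein-coding genes, and were picked by name. A summit, the highest point of a peak, was counted for a gene when it lay inside the annotated gene or at most 10 kb away. The list was made with earlier results of these data known, among them that unc-5 lies nearest to one of the strongest peaks, so the ranks of that peak are given as a description. The data are a chromatin immunoprecipitation experiment with sequencing on whole transgenic embryos of mixed sex, 2 to 12 h old by the source label, that stably express Twist with GFP at its C-terminus, precipitated through the GFP. There was 1 group, with 2 replicates that the labels call biological, and neither a control genotype nor another stage. The labels name no promoter or landing site for the transgene. The age field of the labels holds another figure, the same for both replicates, which differs from this range and was not used. All tissues of the embryo contributed chromatin, and peak lists hold no expression values against which the stage could be checked.

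Slit is a secreted repellent made by the glia of the ventral midline, and the Robo proteins are its receptors on axons. Netrins are also secreted at the midline. Frazzled, the product of fra and the fly relative of DCC, mediates attraction to Netrins, while Unc-5 mediates repulsion from them. The system is also used outside the nervous system. Slit and Robo act in muscle cell migration and in the forming heart tube, and Netrins are made by some body wall muscles. Twist is a basic helix-loop-helix factor of the mesoderm that binds E-boxes, sites of the form CANNTG.

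Each replicate and the pooled alignments had a list of 30000 peaks. A further list holds the 6516 peaks that the authors kept as reproducible by their irreproducible discovery rate (IDR). It equals the 6516 highest-signal peaks of the pooled list, so a peak has the same rank in both. Ranks run from 1, the highest signal, and the signal is the authors' own value on a scale that is not stated. The depth of the libraries is unknown, and there is no test in what follows, since with 1 group no condition is compared and genes are not replicates.

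Of the 8 genes, 7 held an IDR summit, and robo3 held none. Among all protein-coding genes the share was 63.7%, so the count of 7 says little by itself. A summit inside the gene was held by 6 of the 8, all but robo1 and robo3, against 13.2% of protein-coding genes, most of which are far shorter. The genes held 53 IDR summits in all, with a median of 7.5 and a range of 0 to 11 per gene, against a median of 1 over all protein-coding genes. No summit was counted for a pair of them. Long genes have more room for summits. The lengths of 7 of the genes were 27829 to 63339 bp and that of robo1 was 8447 bp, where the median protein-coding gene has 2164.5 bp. Among the 357 protein-coding genes of 30 to 50 kb, the share with an IDR summit was 72.0% and the median count was 2.

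**Figure D1:**
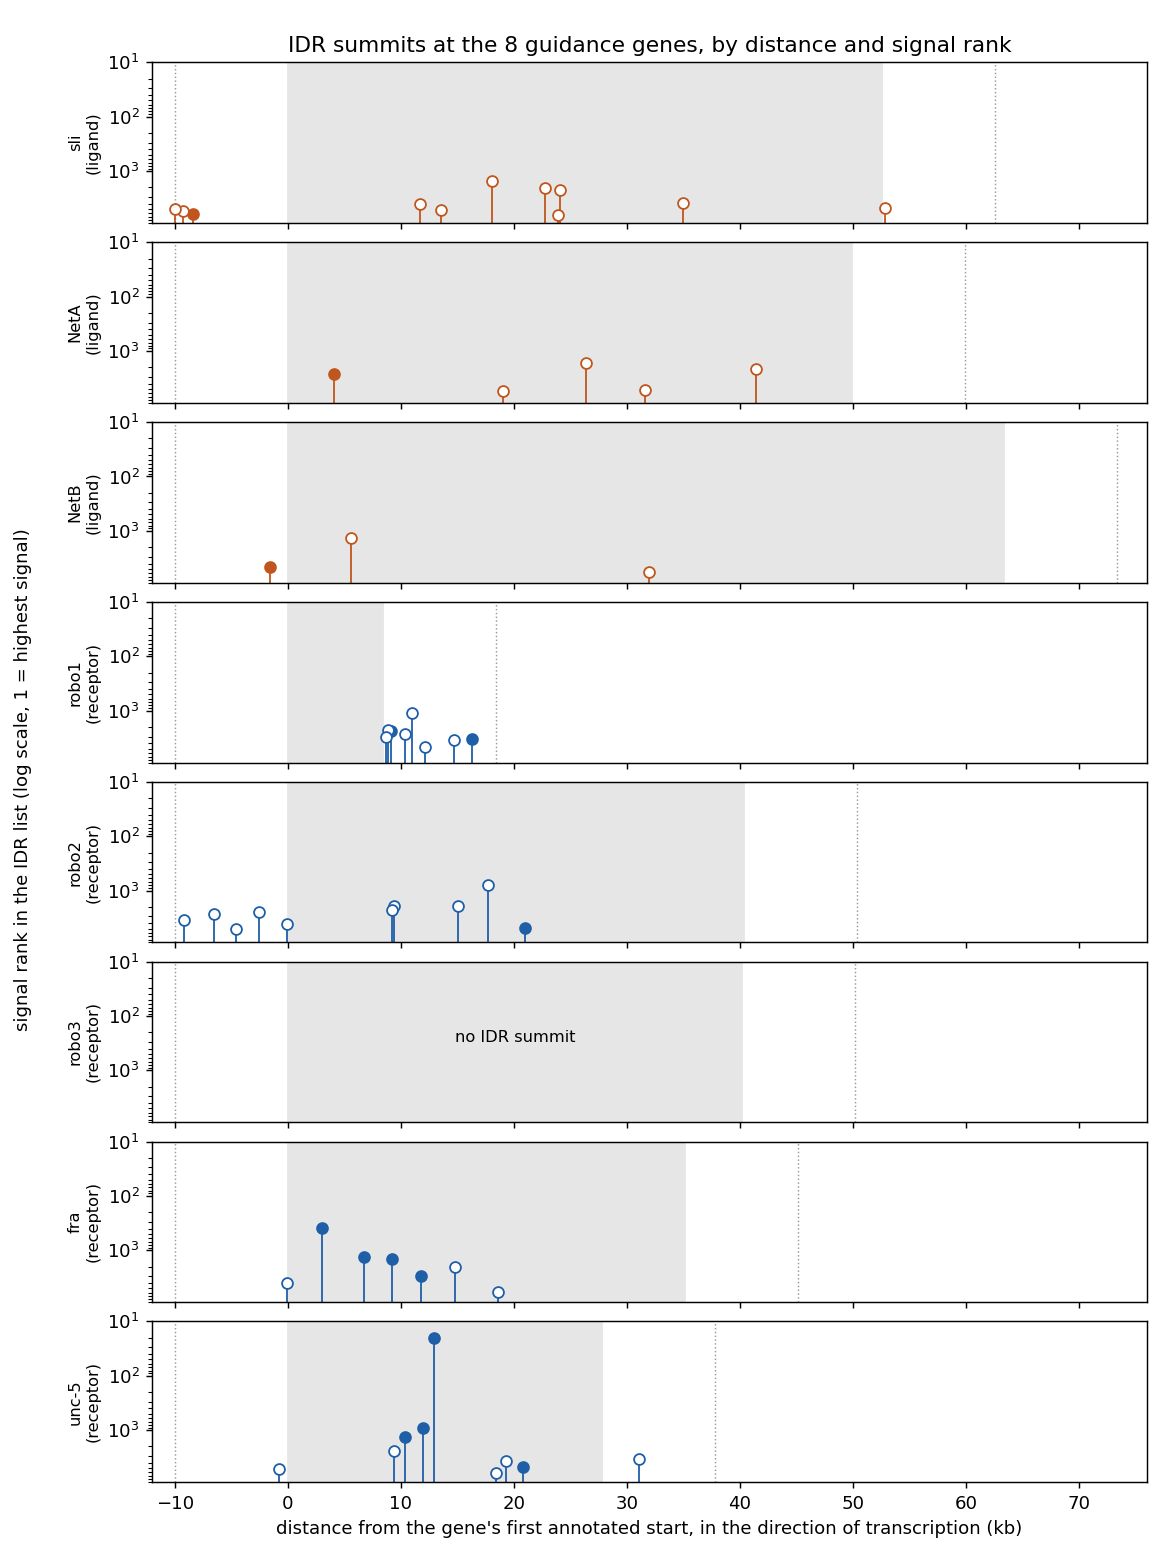
Position and rank of each IDR summit at the 3 ligand genes (orange) and 5 receptor genes (blue). The x axis is the distance from the first annotated start in kb, the y axis the signal rank on a log scale, grey bands are gene bodies and dotted lines the limits of 10 kb. Filled points hold a CATATG or a CACATG at most 50 bp from their summit. The tallest line is the summit of rank 20 in unc-5, the robo1 summits all lie downstream of the gene, and robo3 is empty.

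The windows below show DNA under summits of genes on the X chromosome and on chromosome arm 2L. They are the strongest IDR summit of NetA, NetB and robo2, the other IDR summits of these genes that held CATATG or CACATG, and the weak pooled summit of robo3 that did. CATATG and CACATG are E-box forms that Twist is known to bind. Each window runs 5′ to 3′ on the plus strand of dm6, covers the summit and 50 bases on each side, and has every CANNTG in capitals. The NetA windows are chrX:14627518-14627618 (rank 1673) and chrX:14649791-14649891 (rank 2702). Those of NetB are chrX:14743754-14743854 (rank 1367) and chrX:14750912-14751012 (rank 4545). Those of robo2 are chr2L:1402690-1402790 (rank 779) and chr2L:1399414-1399514 (rank 4917), and that of robo3 is chr2L:1268631-1268731 (rank 19748 in the pooled list).
NetA, rank 1673: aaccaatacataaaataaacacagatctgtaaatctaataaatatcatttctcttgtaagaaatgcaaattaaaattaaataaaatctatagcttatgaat
NetA, rank 2702: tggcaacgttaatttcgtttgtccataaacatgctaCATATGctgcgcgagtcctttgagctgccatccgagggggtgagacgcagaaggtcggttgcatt
NetB, rank 1367: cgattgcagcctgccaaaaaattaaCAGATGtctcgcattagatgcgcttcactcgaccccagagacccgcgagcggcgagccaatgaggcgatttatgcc
NetB, rank 4545: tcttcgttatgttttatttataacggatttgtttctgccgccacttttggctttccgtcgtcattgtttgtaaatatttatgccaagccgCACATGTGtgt
robo2, rank 779: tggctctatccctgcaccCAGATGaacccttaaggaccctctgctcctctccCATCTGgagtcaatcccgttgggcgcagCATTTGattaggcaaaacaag
robo2, rank 4917: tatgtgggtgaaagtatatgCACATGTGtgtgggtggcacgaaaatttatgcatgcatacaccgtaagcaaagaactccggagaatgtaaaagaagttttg
robo3, pooled rank 19748: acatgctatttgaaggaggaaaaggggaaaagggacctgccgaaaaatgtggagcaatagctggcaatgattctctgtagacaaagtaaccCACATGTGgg

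The strongest summits of NetA, NetB and robo2 held neither CATATG nor CACATG. At NetA there was no E-box of any form, at NetB there was 1 (CAGATG), and at robo2 there were 3, of which CATCTG is CAGATG read on the other strand and CATTTG is CAAATG read on the other strand. In the run CACATGTG the CACATG of one strand overlaps that of the other, so it counts as 2 matches. This same run stood in the weaker windows of NetB and robo2, which passed the IDR threshold, and in that of robo3, which did not.

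The ligand sli (chr2R:15869495-15922118, minus strand) had the most IDR summits of the 8 genes, 11, of which 7 lay in the gene body, 3 upstream and 1 downstream. The first place depends on the setting. In the higher-signal part of the IDR list sli had 3 summits and robo2 6, by nearest protein-coding start sli had 2 and robo2 and unc-5 had 7 each, and with windows of 20 kb sli had 11, robo1 12 and robo2 15. Without replicate 2, sli, robo2, fra and unc-5 had 9 each, and within 5 kb unc-5 had 9 and sli 8. None of the 11 lay within 500 bp of either sli start. Its strongest summit, rank 1544, was intronic, 18088 bp downstream of the first start, and ranked 2099 in replicate 1 and 1090 in replicate 2. Another 3 in the gene, at ranks 2054, 2262 and 6398, fell in an exon of the antisense RNA gene asRNA:CR46471, which lies inside sli. For these 3 and those of ranks 1544 and 5148, the nearest protein-coding start was that of CG33463, 1476 to 12013 bp away. The summits of ranks 3976 and 5148 were closest to the start of lncRNA:CR44373. The 3 upstream summits were 8421 to 9957 bp from the gene and closer to a start of bdg, 140 to 1396 bp away, and the downstream one was 82 bp from the start of Rif1, a replication timing factor. The position of a summit does not show which of these genes, if any, it acts on. CATATG was found at 1 of the 11 summits, one of the 3 near bdg, and CACATG at none.

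The Netrin genes lie beside each other on the X chromosome, 32109 bp apart and on the same strand. NetA (chrX:14604012-14653928) had 5 IDR summits, all in introns, at ranks 1673, 2140, 2702, 5320 and 5508. Those of ranks 1673, 2140 and 5320 were closer to the start of sbm, 9883 to 24988 bp away, than to a NetA start. The one of rank 2702, 4087 bp downstream of the first start, held CATATG 11.5 bp from the summit to the centre of the motif. NetB (chrX:14686038-14749376) had 3, fewer than any other gene with an IDR summit although it is the longest of the 8. Its strongest, rank 1367, was intronic and 5572 bp downstream of the first start, and its ranks were alike in the libraries, 1365 in replicate 1 and 1378 in replicate 2. Another of rank 4545 lay 1586 bp upstream, and the third, of rank 5838, was 1504 bp from the start of hog, a gene inside NetB. Neither Netrin gene had an IDR summit within 500 bp of a start.

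Among the Slit receptors, robo1 (chr2R:22692524-22700970, minus strand) had 8 IDR summits and none of them in the gene body or upstream. All lay downstream, 247 to 7827 bp past its end, and for none of them was robo1 the gene with the nearest protein-coding start, which was that of Ppa in every case. Ppa encodes an F-box protein. The strongest, rank 1119, lay over lncRNA:CR44763, a non-coding RNA gene, and ranked 2057 in replicate 1 and 590 in replicate 2. The summits of ranks 2249, 2376 and 2988 shared 1 interval, chr2R:22691433-22692496, next to the end of the gene. Of the 1535 protein-coding genes of 5 to 15 kb with an IDR summit within 10 kb, 62.7% had none in the gene body, so robo1 was of the common kind in this.

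The receptor gene robo2 (chr2L:1380086-1420453, minus strand) had 10 IDR summits, 5 in introns and 5 upstream. The strongest, rank 779, was 17713 bp downstream of its only annotated start and ranked 1338 in replicate 1 and 415 in replicate 2. A summit of rank 4070 lay 42 bp upstream of that start, and the others upstream, at 2497 to 9197 bp, ranked between 2490 and 5072. Of those, 3 were closer to the start of CG43401. The ranks of the intronic summits were 779, 1916, 1936, 2263 and 4917, and the weakest of them was the only one of the 10 that held CACATG. That weakest one was closest to the start of lncRNA:CR44898, 18138 bp away.

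The receptor gene robo3 (chr2L:1256417-1296596, plus strand) lies 83489 bp from robo2 and has nearly its length, 40180 bp against 40368 bp for robo2, but had no IDR summit. Nor was there one within 20 kb. Its summits in the longer lists were few and weak. The pooled list had 2, at ranks 18643 and 19748, both in the intron 12264 to 13464 bp downstream of the start. Replicate 1 had 6, of ranks 19905 to 28378, and replicate 2 had 1, of rank 19247. All were intronic, and no other gene is annotated within 10 kb of robo3. The window held 44 matches to CATATG or CACATG, 7.31 per 10 kb, where the other 7 windows had 6.69 to 9.64 and the 7 chromosomes together 7.95. Of the 357 protein-coding genes of 30 to 50 kb, 100 had no IDR summit, so robo3 was not alone in this.

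Of the Netrin receptors, fra (chr2R:12529053-12564184, plus strand) had 7 IDR summits, 6 of them in introns and 1 at its only start, 51 bp upstream, of rank 3969. The strongest, rank 391, was 3071 bp downstream of the start and ranked 538 in replicate 1 and 303 in replicate 2. The intronic summits all lay within 18646 bp of the start, in a gene of 35132 bp. Those of ranks 1422, 2057, 3020 and 5821 were closer to the start of CG33752, 1794 to 7426 bp away. The 4 intronic summits nearest to the fra start, of ranks 391, 1328, 1422 and 3020, each held CATATG or CACATG, at 0.5 to 38.5 bp from the summit. The farther ones, of ranks 2057 and 5821, held no E-box of any form, nor did the summit at the fra start.

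The strongest summit of the 8 genes was in unc-5 (chr2R:15340472-15368300, plus strand), at rank 20, 26 in replicate 1 and 17 in replicate 2. It lay in an intron 3265 bp downstream of the internal start of the gene and 12926 bp downstream of its first start, in the peak chr2R:15352003-15353875. That peak held another summit of rank 903, and the neighbouring peak chr2R:15349752-15351414 held those of ranks 1344 and 2408. The last of these was 253 bp upstream of the internal start. All 4 thus lay from 253 bp upstream to 3265 bp downstream of the internal start, and the first start had a single summit of rank 5211, 797 bp upstream of it. The rank 20 summit had 4 E-boxes within 50 bp, among them CAAATG, also CAGATG, and a CACATG that was 42.5 bp from the summit. Among all protein-coding genes, 0.515% had a summit of rank 20 or better within 10 kb. This peak was a reason for choosing the gene, so nothing is read from that share. In all unc-5 had 9 IDR summits, all found in both replicates, and 4 of them held CATATG or CACATG. One of rank 3462 lay 25 bp from the start of Pms2, a mismatch repair gene, and 3245 bp past the end of unc-5.

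Summits stood on both sides of the 10 kb limit. Just inside it lay the bdg summit at 9957 bp from sli (rank 4908) and summits at 9231 bp from sli (rank 5452) and 9197 bp from robo2 (rank 3531). Just outside it were summits at 10062 bp from robo1 (rank 2932), at 10201 bp from robo2 (rank 4898) and at 10592 bp from unc-5 (rank 274), the last nearest to a start of dup and stronger than every counted summit but that of rank 20.

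**Figure D2:**
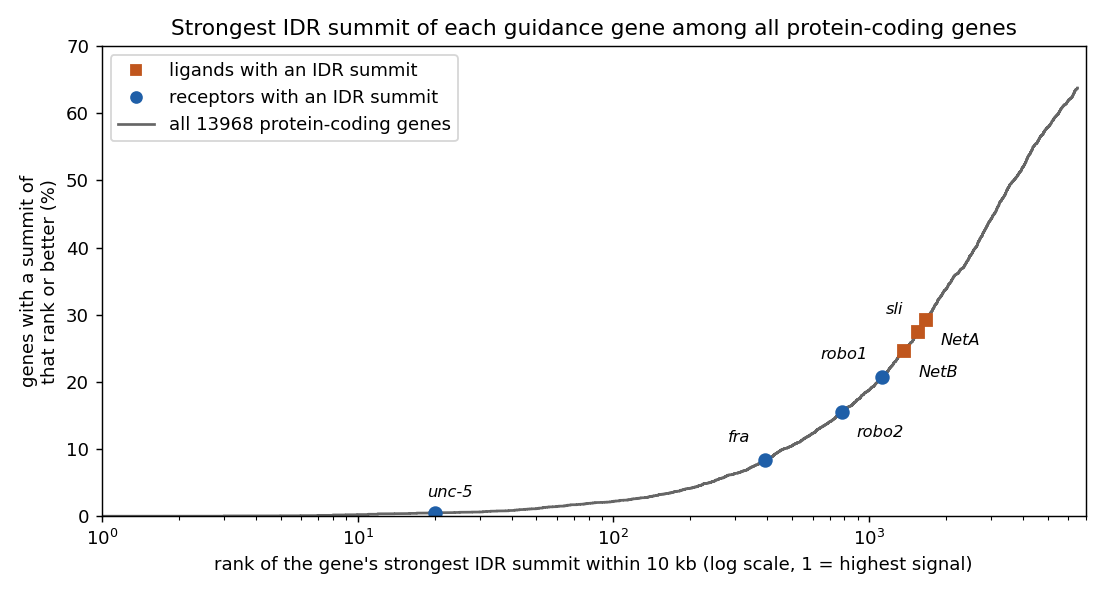
Rank of the strongest IDR summit within 10 kb of each guidance gene (squares, ligands; circles, receptors) on the cumulative curve of all 13968 protein-coding genes. The x axis is the rank on a log scale and the y axis the percent of genes with a summit of that rank or better. The 3 ligand genes sit between ranks 1367 and 1673, and the 4 receptor genes with a summit between 20 and 1119.

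By strongest summit the 7 genes fell in the order unc-5 (20), fra (391), robo2 (779), robo1 (1119), NetB (1367), sli (1544) and NetA (1673). Every receptor gene that had an IDR summit was thus ahead of every ligand gene, and robo3 was behind all. The place of robo1 rests on a summit past its end. In the gene body, or by nearest protein-coding start, robo1 had 0 summits and each ligand gene had at least 2. In the replicates the order was not the same. In replicate 1 the strongest summits ranked 26 at unc-5, 538 at fra, 1338 at robo2, 1365 at NetB, 1385 at NetA, 2057 at robo1 and 2099 at sli. In replicate 2 they ranked 17 at unc-5, 303 at fra, 415 at robo2, 590 at robo1, 1090 at sli, 1378 at NetB and 2329 at NetA. The places of unc-5, fra, robo2 and robo3 were the same in both libraries, while robo1, sli, NetA and NetB changed places. In replicate 1 NetA and NetB were ahead of robo1. With robo3 left aside, the split of receptor from ligand genes within 10 kb thus held in the pooled ranks and replicate 2, but not replicate 1. With robo3 counted it held in none of them. Of all protein-coding genes, 29.3% had a summit of rank 1673 or better within 10 kb, and 8.40% had one of rank 391 or better.

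The ligand genes held 19 IDR summits, 6.33 ± 4.16 per gene (SD over 3 genes), and the receptor genes 34, 6.80 ± 3.96 per gene (SD over 5 genes), a difference far smaller than the spread among genes of either kind. Per length of window, ligand genes had 0.841 IDR summits per 10 kb and receptor genes 1.35. The 7 chromosomes had 0.474 over their whole length, which is not a density over windows around genes. In the pooled list, which also holds the weak peaks, the order was the other way, 5.05 per 10 kb at ligand genes and 4.64 at receptor genes. Put as shares, 19 of the 114 pooled summits at ligand genes were in the IDR list, and 34 of the 117 at receptor genes. Of the ligand summits 7 were in the higher-signal part of the IDR list, ranks 1 to 3258, and of the receptor summits 20. The 4 strongest summits, of ranks 20, 391, 779 and 903, were all at receptor genes. The median rank was 4545 for ligand summits and 2716.5 for receptor summits. Of the receptor summits 11 shared their interval with another summit, and of the ligand summits 0 did. The 8 receptor summits counted for robo1 were all nearest to the start of Ppa among protein-coding genes. All these counts and ranks are descriptions of 3 and 5 genes chosen with results known, and neighbouring summits of a gene are not independent.

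**Figure D3:**
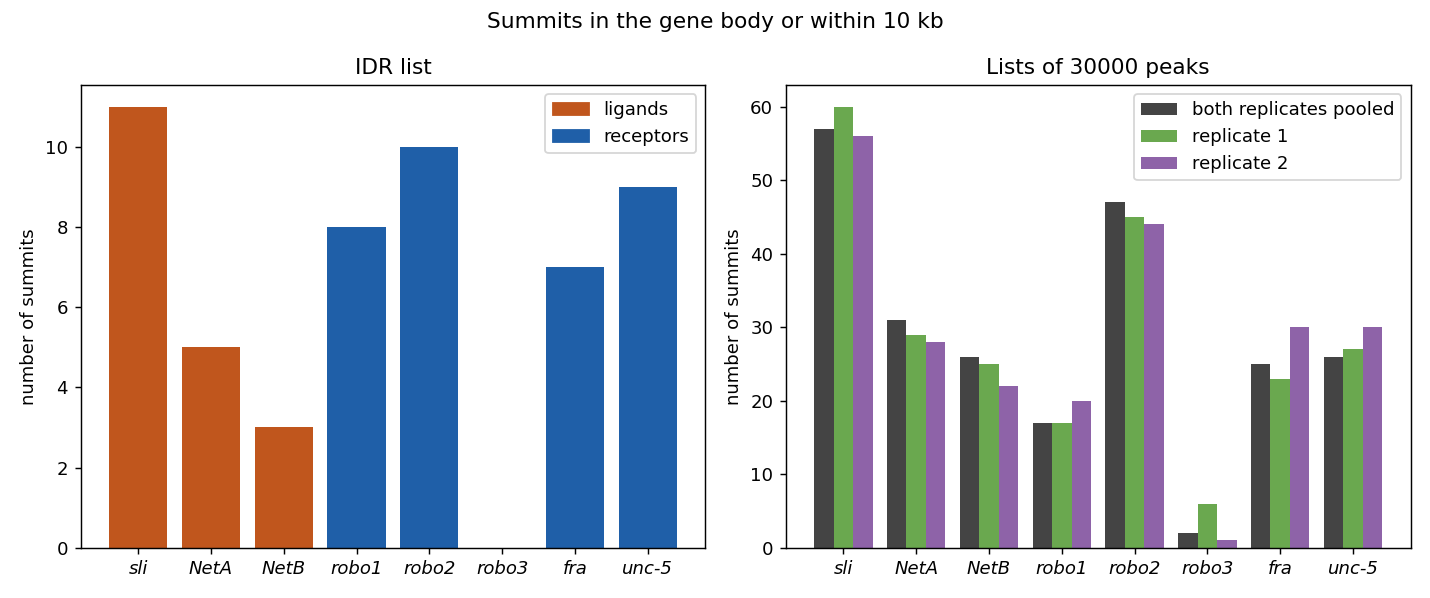
Number of summits per gene, counted to 10 kb beyond its ends, in the IDR list (left, ligands in orange and receptors in blue) and in the 3 lists of 30000 peaks (right). The IDR counts run from 0 at robo3 to 11 at sli, and in the longer lists sli and robo2 stand above the rest and robo3 below it.

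Over the whole lists of the single libraries, sli held 60 summits in replicate 1 and 56 in replicate 2, and robo2 held 45 and 44 in the same order. NetA had 29 and 28, unc-5 27 and 30, fra 23 and 30, NetB 25 and 22, and robo1 17 and 20. The replicate counts of NetA lay within the ranges of unc-5 and fra, and those of NetB overlapped with those of fra, so NetA, unc-5 and fra cannot be put in order, nor can fra and NetB. The counts of sli, robo2, robo1 and robo3 did not overlap with those of any other gene. All 8 genes had a summit in the pooled list and in each replicate, where the shares of all protein-coding genes were 79.2% in the pooled list, 83.1% in replicate 1 and 80.1% in replicate 2. Per 10 kb the pooled list gave 7.85 summits at sli, 7.79 at robo2, 5.98 at robo1, 5.44 at unc-5, 4.53 at fra, 4.43 at NetA, 3.12 at NetB and 0.332 at robo3. In the IDR list the order was robo1 with 2.81, unc-5 with 1.88, robo2 with 1.66, sli with 1.51, fra with 1.27, NetA with 0.715 and NetB with 0.360. The window of robo1 is the shortest, and its summits all stand on the side of Ppa.

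Of the 53 IDR summits, 49 had a summit within 100 bp in both replicate lists, against 95.4% of the whole IDR list. All 19 at ligand genes and all 16 at fra and unc-5 were among them. The 4 others were 3 at robo1 and 1 at robo2. Of these, 3 had no summit within 100 bp in replicate 2 and 1 had none in replicate 1. The number depends on the matching rule. With any overlap of the intervals all 53 were found in both replicates, and with summits matched within 50 bp 43 were. The intervals of the 4 thus overlapped a peak in each library. A peak at a neighbouring summit is enough for such an overlap, so it cannot show that the summit itself was present. Of the 4, those of ranks 2249 and 2376 at robo1 and of rank 1916 at robo2 shared their interval with another summit. The IDR list was derived from these libraries, so the counts describe how it was built. Among the 49, replicate 2 gave the higher rank to 30 and replicate 1 to 19, where replicate 2 was higher for 49.6% of all shared IDR summits. The split was 9 and 10 at ligand genes and 21 and 9 at receptor genes. Over those of the 53 with a match in the given library, the median ranks were 3587 in replicate 1 and 2795.5 in replicate 2. Over all IDR summits with a match they were 3291.5 and 3229.

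**Figure D4:**
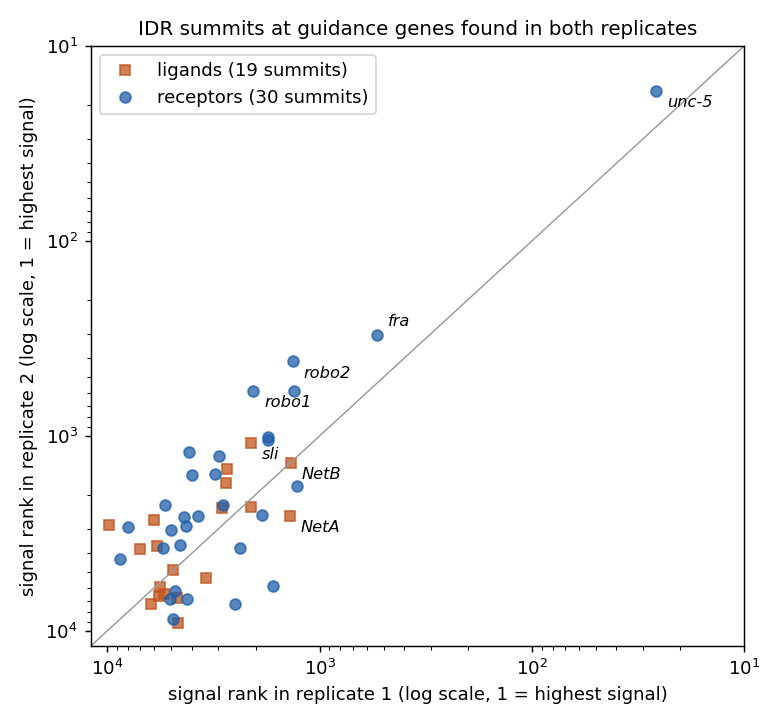
Signal rank in replicate 1 (x axis) and replicate 2 (y axis), both on log scales with the highest signal at the far end, for the 49 IDR summits at guidance genes found in both lists. Squares are the 19 ligand summits and circles the 30 receptor summits, the line marks equal ranks, and the strongest summit of each gene is named. The summit of unc-5 stands apart at ranks 26 and 17.

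Introns held 30 of the 53 summits, or 56.6%, against 38.2% of all IDR summits. Promoters, within 500 bp of an annotated start of any gene, held 9, or 17.0%, against 39.5%. Intergenic sequence also held 9, or 17.0%, against 18.4%. Exons outside coding sequence and UTRs held 4, a UTR 1, and coding exons none. The genes have 1 or 2 annotated starts each, and the share of intron in their windows was not measured. Of the 9 promoter summits, 3 were at a start of the gene itself, at robo2, fra and the internal start of unc-5. The other 6 were at starts of Rif1, bdg, Ppa, lncRNA:CR44763, lncRNA:CR44764 and Pms2. Of the 53 summits, 23 had one of the 8 genes as the nearest protein-coding start, 6 of the 19 at ligand genes and 17 of the 34 at receptor genes. Summits that shared their interval with another numbered 11, all at robo1, robo2 and unc-5, and 9.27% of all IDR summits were of this kind.

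CATATG or CACATG stood within 50 bp of 14 of the 53 summits, or 26.4%, against 28.2% of all IDR summits, so the 8 genes as a group were near the background. CATATG was at 7 of them, where the share over all was 11.6%, and CACATG at the 7 others, where the share was 18.9%. The matches were spread unevenly. Ligand genes had them at 3 of 19 summits, or 15.8%, and receptor genes at 11 of 34, or 32.4%. Within the receptors they were at 8 of 16 summits of the Netrin receptor genes fra and unc-5, and at 3 of 18 of the Slit receptor genes robo1 and robo2. With any CANNTG counted the shares were closer, 11 of 19 at ligand genes and 20 of 34 at receptor genes, against 57.2% of all IDR summits. The pooled summits of the 8 genes outside the IDR list numbered 178, of which 16.3% held CATATG or CACATG, against 14.7% of all such summits. The 8 windows together held 398 matches, and 16 of these were within 50 bp of an IDR summit. By gene these were 4 each at fra and unc-5, 2 each at NetB, robo1 and robo2, and 1 each at sli and NetA. A match is a description of the letters in the window, and not evidence that Twist sits on it.

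Other genes of axon guidance were taken as 45 genes in 5 groups, a list made with earlier results of these data known. Of them 36 had an IDR summit within 10 kb, or 80.0%, against 63.7% of all protein-coding genes. The median was 3 summits per gene, against 1 over all protein-coding genes. Many of the 45 are long, from 1477 to 145447 bp, where the median protein-coding gene has 2164.5 bp. Among protein-coding genes of 30 to 50 kb the share was 72.0% and the median count 2. The regulators of Robo transport and the co-receptors had one at 7 of 7 genes. They were led by Dscam1 (rank 35), a cell surface receptor that also binds Netrin, comm (rank 454), whose product keeps Robo away from the growth cone surface, and comm3 (rank 1047). Signalling partners had one at 10 of 12, led by Mtl (rank 33), Rac1 (rank 275) and capt (rank 831), a regulator of actin, with none at Pak and Sos. Transcription factors known in flies to regulate genes of the system had one at 7 of 8, led by zfh1 (rank 92), sim (rank 138), the master regulator of the midline, and lola (rank 176), with none at exex. Other guidance ligands had one at 5 of 8. Of these side (rank 310), a muscle cue for motor axons, and the semaphorin genes Sema1a (rank 616) and Sema2a (rank 888) led, and Sema2b, Wnt5 and Ephrin had none. Other guidance receptors had one at 7 of 10, led by otk (rank 235), drl (rank 586), a Wnt5 receptor, and Lar (rank 774), with none at Eph, Drl-2 and beat-Ia. For other guidance genes, too, the shares were thus 5 of 8 for ligands and 7 of 10 for receptors, and neither was far from the background.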

How the data were processed

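The authors deposited narrowPeak lists with dm6 coordinates, per the labels. Per the records deposited beside the lists, peaks of each replicate and of both pooled were called against 1 control file. Which aligner and caller made them is not given in the sources used here. Ranks come from the signal value that the authors deposited for each peak. Their deposited −log10 q-value was left aside, since every IDR peak was tied at its highest value. Depth is unknown.

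Every peak end lay within its chromosome in the Release 6 sequence on all 7 chromosomes. The annotation was Ensembl release 115, without transposable elements (18277 genes). All 8 genes and all 45 other guidance genes were found by symbol. Positions are 1-based. Summits were matched within 100 bp. A summit within 500 bp of any start was put at a promoter, and otherwise in a coding exon, a UTR, another exon, an intron or between genes, in this order. Both strands were searched for motifs within 50 bp of the summit. The code was tested on simulated summits with planted motifs. Python 3.11.15, numpy 2.4.6, pandas 2.3.3 and matplotlib 3.10.9 were used.

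The genes and lists were chosen with earlier results of these data known. Named were the 8 genes, of each other group the 3 with the strongest summit and, where fewer than 5, those without one, and genes that share a summit. No gene was named for likeness of pattern, since 2 libraries of 1 group give none. Capitals were extended from CATATG and CACATG to all CANNTG after the data were seen. Alternatives were other windows, matching and promoter distances, the higher-signal IDR peaks, and each replicate left out.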

Additional observations from a re-analysis of the deposited data

How the results depend on the processing

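Each count was set against 70 alternatives in all, and 49 of these gave values within 1.5 times of the reported one. The number of guidance genes with a summit was 6 or 7 under every alternative run, and robo3 had none in each of them. When a replicate was left out, the 6516 highest peaks of the other library were used in place of IDR peaks. The summits at the 8 genes then numbered 52 to 55, those at ligand genes 17 to 21, those at receptor genes 34 to 35, those with CATATG or CACATG 15 to 16, those at promoters 9 to 11, and the other guidance genes with a summit 36 to 37, all within 1.5 times.

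Counting in gene bodies alone gave 32 summits, 18 of them at receptor genes, 1 at a promoter and 31 found in both replicates, and 23 of the other guidance genes with a summit. With 1 kb around the gene 4 summits were at promoters. Assigning each summit to its nearest protein-coding start gave 23 summits, 6 at ligand and 17 at receptor genes, 8 with CATATG or CACATG, 3 at promoters and 22 found in both replicates. The higher-signal part of the IDR list gave 27 summits, 7 at ligand and 20 at receptor genes, 9 with these motifs, 3 at promoters and 24 found in both replicates, fewer by construction. Motif windows of 25 bp on each side gave 6 summits with CATATG or CACATG and those of 100 bp gave 22. Any CANNTG, a choice made after seeing the data, gave 31. Per gene, the order of ligand and receptor genes turned with the setting. The 10 kb windows gave 6.33 summits per ligand gene and 6.80 per receptor gene. Ligand genes were ahead in gene bodies (4.67 and 3.60), with 1 kb around the gene (5 and 4.80) and without replicate 1 (7 and 6.80). Receptor genes were ahead with 5 kb (5.33 and 6), with 20 kb (6.67 and 9) and by nearest protein-coding start (2 and 3.4). They were also ahead in the higher-signal part of the IDR list (2.33 and 4) and without replicate 2 (5.67 and 7). Peak lists capped by number limit what can be said of weak sites, since a site below the last peak is not listed.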
